A study of Mus musculus with 6 samples.

Results

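Solute carriers are the membrane proteins that move nutrients, ions and metabolites into, out of and within cells, and their genes carry symbols beginning with Slc or Slco. The genes described here are the rows of the authors' deposited table whose symbol begins with Slc followed by a digit or the letter o. There were 118 of them among the 6467 genes of the table, and they belong to 40 families. Of the 118, 3 carry the name without encoding a carrier: Slc9a3r1 and Slc9a3r2 encode scaffold proteins that bind carriers, and Slc7a6os is a gene named for its place opposite Slc7a6. The table holds only genes with a q-value below 0.05 in the authors' own comparison, so every member had passed that threshold beforehand, as had 37.9% of the 17077 genes tested. RefSeq lists 389 protein-coding mouse genes with such a symbol, of which the members are 30.3%. How many of the others were tested is not known, and no level is given here for a carrier outside the table, among them the glucose carrier gene Slc2a1 and the glutamine carrier gene Slc1a5.

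Carriers are grouped into families by sequence, and a family often shares a kind of substrate. T cells that become activated take up more glucose, amino acids, iron and other nutrients, and the heterodimer of Slc7a5 and Slc3a2, which imports large neutral amino acids, is one of the best known gates of that growth. The Slc25 family sits in mitochondria, and the Slc35 family carries nucleotide sugars and related molecules into the Golgi apparatus and endoplasmic reticulum for glycosylation.

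RNA was sequenced from CD8+ T cells sorted on a BD AriaIII from tumours of MC38, a mouse colon carcinoma line, in wild-type C57/B6J mice. Mice had received either PBS or αPD-1-IL-15-R, and each group had 3 libraries. The title describes the agent as PD-1 antibody that brings concealed IL-15 to the tumour. Per the labels, 30 µg was injected intraperitoneally on day 14 and again on day 17, and 48 hours later the cells were taken. The antibody and cytokine parts of the agent cannot be told apart, since neither was given by itself, and the labels do not say whether a library came from 1 mouse or a pool. The table's genes held between 8484736 and 9403710 reads per library. The p-values hence rest on the variation among 6 samples, some of which may be technical.

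The sorted cell type was checked against its markers. Of 16 T cell markers listed, 12 were in the table and all were higher in the treated libraries, Cd8b1 among them at 4546, 12330 and 6681 normalised reads in PBS libraries 1 to 3 and 13357, 18056 and 14954 in treated libraries 1 to 3. The summed TPM of these 12 ran from 1889 to 5328 in PBS and from 5521 to 6521 in treated libraries, with PBS library 1 lowest and PBS library 2 highest of its group. Markers of other cells were present too: 16 of 17 macrophage and monocyte markers were in the table, all lower, with a summed TPM of 3515 to 4844 in PBS and 395 to 1268 in treated libraries. The fibroblast and pericyte markers, 11 of 12 in the table and all lower, summed to between 1144 and 2026 TPM in PBS and between 43.3 and 345 in treated libraries. The dendritic cell markers, 10 of 12 in the table and all lower, went from a range of 2604 to 3463 TPM to one of 268 to 693. All 8 endothelial markers in the table were lower, from 9.71 to 18.8 TPM in PBS and 1.52 to 3.49 in treated libraries. Of these markers, Lum and Cd209a were at 0 in at least 1 library, and none was at 0 in all treated libraries. In the edgeR fit described below, 1 of the 12 T cell markers was called higher, and Cd8b1 was not (edgeR adjusted p = 0.13). Called lower were 13 of 16 macrophage and monocyte, 10 of 10 dendritic cell and 3 of 11 fibroblast and pericyte markers. The same held for 4 of the 6 endothelial markers fitted. Of all genes fitted, 16.5% were called higher and 20.7% lower. In bulk RNA, fewer cells of a type and less RNA per cell cannot be told apart.

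Carrier genes moved in both directions. By the authors' deposited log2 changes, the treated group was higher in 48 of the 118 members, or 40.7% against 42.3% of all table genes. It was lower in the other 70, against 57.7% of all table genes. Normalised reads, which are the deposited counts divided by the authors' size factors, were refitted across the table with edgeR's quasi-likelihood test, and a gene was called at an adjusted p under 0.05. The fit held 114 members and called 20 higher and 32 lower, or 17.5% and 28.1%, against 16.5% and 20.7% of all genes fitted. Called in either direction were 45.6% of the members, against 37.2% of all genes. Their median log2 change was -0.64, beside -0.57 for all genes fitted. The 3 treated values lay above all 3 PBS values in 47 members and below them in 69, and 2 members overlapped; over all table genes the shares were 42.1% and 57.2%.

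The smallest edgeR adjusted p of any member was 0.04, and members with unlike unadjusted p-values share it as rounded. Slc5a3 and Slc37a4 both have it, with unadjusted edgeR p-values of 0.00011 and 0.0017. An adjusted p of 0.04 hence does not rank genes, and all calls lie close to the threshold. The calls were sensitive to the tool and to single libraries. DESeq2 called 47 of 118 members higher and 69 lower, against 41.4% and 56.8% of all genes. With limma-voom the calls were 39 and 56 of 114, against 31.7% and 46.8%. Every gene fitted had already passed the authors' threshold on the same libraries, and the authors' size factors were reused. Counts of calls from any tool are hence no independent support. With edgeR, leaving out PBS library 1, PBS library 3, treated library 2 or treated library 3 left 0 calls among all genes, with smallest adjusted p-values among the members of 0.088, 0.18, 0.16 and 0.16 and with 97, 85, 88 and 84 members at an unadjusted p under 0.05. The sign of all 114 members stayed the same in each of these fits. Leaving out PBS library 2 or treated library 1 kept 42 and 49 of the 52 calls. Calls lost include those of Slc4a4, Slc7a5, Slc7a8, Slc8a1, Slc22a23, Slc27a3 and Slc44a1 without PBS library 2, and those of Slc7a5 and Slc39a6 without treated library 1. Scaling mattered too. Relative to the fit with the authors' size factors, log2 changes moved by a median over genes of 0.26 with TMM and 0.41 with median-ratio factors. With total counts the median move was -0.19. These scalings were computed from the table's genes alone, all past the authors' threshold, so the total counts are not those of whole libraries. The table's genes held 57.8% to 59.6% of the TPM in PBS and 63.2% to 65.1% in treated libraries. On log2(TPM + 1) the median move was -0.27, but single genes moved unequally, since the added 1 shrinks the changes of scarce genes. Among the alternatives, 3 members changed sign with median-ratio scaling and 2 on log2(TPM + 1), none of them called.

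**Figure D1:**
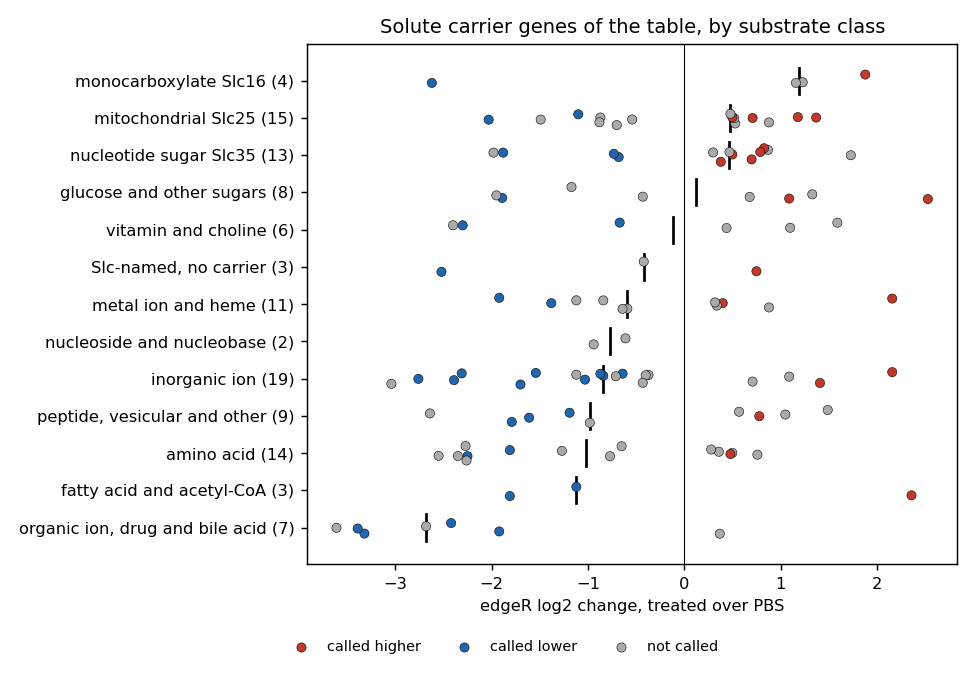
Log2 change of treated over PBS from the edgeR fit for the 114 members fitted, 1 point per gene, by class with the number of genes in brackets. Substrate classes were assigned by family number, and vertical bars mark class medians. Organic ion and inorganic ion carriers lie mostly to the left, with medians of -2.68 and -0.84. The fatty acid, amino acid and peptide classes have lower medians than the inorganic ion class, at -1.12, -1.02 and -0.98. The medians of the Slc16, Slc25 and Slc35 families lie above 0, as does that of the sugar class at 0.12.

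By the log2 changes of the authors' deposited table, 11 of 16 amino acid carriers were lower and 5 higher, beside 57.7% and 42.3% of all table genes. Of the 14 fitted, 2 were called lower and 1 higher, beside 20.7% and 16.5% of all genes fitted. The same shares of all genes apply beside the counts of the other classes. Slc7a5, the light chain of the large neutral amino acid carrier, had 2828, 2447 and 2491 normalised reads under PBS and 3486, 3454 and 3903 after treatment. The treated values all lay above the PBS values, and the gene rose by 0.48 (SE 0.11, edgeR adjusted p = 0.048). That change was 0.17 on log2(TPM + 1) and 0.30 with total-count scaling, and it was called in neither. Its partner Slc3a2, the heavy chain CD98, had 5066, 5169 and 4950 reads under PBS and 6079, 6408 and 7068 after treatment, without overlap, and stood at 0.36 (SE 0.10, edgeR adjusted p = 0.064). On the TPM scale its mean level was 233 ± 12.3 in PBS and 236 ± 21.1 in treated libraries (SD, n = 3), a difference smaller than the spread. Slc38a1, a carrier of glutamine, went from 2111, 2626 and 2273 to 3108, 3249 and 3555 reads, a difference of 0.50 on the log2 scale (SE 0.12, edgeR adjusted p = 0.051).

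The other amino acid carriers in the table were mostly lower in the treated libraries. Those fitted ranged from -0.65 (Slc38a7) to -2.55 (Slc6a15). Slc38a6 and Slc38a10 were higher and not called, at 0.76 (SE 0.21, edgeR adjusted p = 0.062) and 0.28 (SE 0.09, edgeR adjusted p = 0.078). Slc7a8, another light chain that pairs with Slc3a2, had 365, 435 and 534 reads under PBS and 171, 53.6 and 55.5 after treatment, and fell by 2.25 (SE 0.53, edgeR adjusted p = 0.048). Treated library 1 was the highest of its group, and without it the change was -3.02. Slc7a7, a light chain for cationic and neutral amino acids, had 78.6, 69.5 and 84.8 reads under PBS and 22.7, 20.8 and 22.5 after treatment. The treated values hardly differed from each other, and Slc7a7 fell by 1.81 (SE 0.25, edgeR adjusted p = 0.04). Slc7a2, an arginine carrier known from macrophages, had 1157, 858 and 1228 reads under PBS and 467, 88.7 and 117 after treatment, a difference of -2.27 on the log2 scale (SE 0.68, edgeR adjusted p = 0.071). The Slc6 members, which carry creatine (Slc6a8), glycine (Slc6a9) and neutral amino acids (Slc6a15, Slc6a7), were all lower and none was called, with log2 changes from -2.26 to -2.55 for the 3 that were fitted. In Slc6a15 the treated values were 207, 32.8 and 29.9 reads, so treated library 1 stood far above the other treated libraries. Slc1a7, a glutamate carrier, was at 14.8, 4.87 and 9.63 reads in PBS and at 0 in all treated libraries, at least 3.1-fold lower with a floor of 3 reads per library.

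Classes were assigned by family number, so a class can hold carriers of other substrates and miss some of its own. The class of glucose and sugar carriers holds the urate carrier Slc2a9, for example, but not the glucose 6-phosphate carrier Slc37a4. Of its 10 genes, 4 were higher by the authors' deposited log2 changes, 2 of them called. The other 6 were lower, 1 of them called, a split like that of all table genes (42.3% higher). Slc2a3, which encodes the glucose carrier GLUT3, had 712, 2202 and 1127 reads under PBS and 2886, 3683 and 3619 after treatment. The groups did not overlap, but PBS library 2 held 3.09 times the reads of PBS library 1, and the change of 1.33 (SE 0.42) was not called (edgeR adjusted p = 0.078). Slc2a9, a carrier of urate, had 101, 110 and 91.5 reads under PBS and 207, 231 and 207 after treatment, with little spread in either group, and rose by 1.09 (SE 0.20, edgeR adjusted p = 0.04). The pair of myo-inositol carriers Slc5a3 and Slc5a11 went in opposite directions. Slc5a3 had 712, 500 and 716 reads under PBS and 197, 170 and 155 after treatment and fell by 1.89 (SE 0.20, edgeR adjusted p = 0.04). Slc5a11 had only 4.61, 8.76 and 6.74 reads under PBS and 34.6, 46.0 and 37.4 after treatment, and rose by 2.53 (SE 0.34, edgeR adjusted p = 0.04), more than any other called member.

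Among the monocarboxylate carriers, 3 of 4 were higher. Slc16a11 had 85.8, 121 and 77.1 reads under PBS and 246, 433 and 364 after treatment, and rose by 1.88 (SE 0.31, edgeR adjusted p = 0.04). Its neighbour on chromosome 11, Slc16a13, with no protein-coding gene between them in RefSeq's order, had 44.3, 126 and 76.1 reads against 166, 239 and 174, and stood at 1.23 (SE 0.43, edgeR adjusted p = 0.094). Slc16a6 stood at 1.16 (SE 0.34, edgeR adjusted p = 0.066). Slc16a7, the pyruvate and lactate carrier MCT2, was scarce and fell, with 23.1, 18.5 and 25.0 reads under PBS and 2.96, 4.38 and 3.20 after treatment (-2.62, SE 0.33, edgeR adjusted p = 0.04). Bsg, the chaperone of the lactate carriers Slc16a1 and Slc16a3, stood at -0.54 (SE 0.16, edgeR adjusted p = 0.071), whereas Emb, a related chaperone, rose from 1427, 2255 and 1961 to 5132, 5093 and 5703 reads (edgeR adjusted p = 0.04).

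The mitochondrial Slc25 family held the most abundant members. Slc25a5, which exchanges ADP for ATP across the inner membrane, had 6130, 5959 and 5384 reads under PBS and 9771, 9577 and 9308 after treatment. It rose by 0.71 (SE 0.10, edgeR adjusted p = 0.04), and its level was 501 ± 8.26 TPM in PBS and 663 ± 39.9 TPM in treated libraries (SD, n = 3). Slc25a3, the phosphate carrier that feeds ATP synthase, had 7050, 7008 and 6503 reads under PBS and 9018, 10153 and 9832 after treatment and rose by 0.50 (SE 0.10, edgeR adjusted p = 0.043). Its change was 0.31 with total-count scaling and 0.18 on log2(TPM + 1), and was called in neither. Slc25a20, the carnitine and acylcarnitine carrier, had 334, 419 and 361 reads under PBS and 740, 917 and 867 after treatment, the groups lying far apart. In the authors' deposited table, a total of 8 of 15 Slc25 genes were higher, 4 of them called, and 7 were lower, 2 of them called.

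The Slc25 genes that were lower included carriers linked to iron and citrate. Slc25a37, mitoferrin-1, which imports iron, had 2093, 1631 and 2183 reads under PBS and 1079, 821 and 865 after treatment, and fell by 1.10 (SE 0.17, edgeR adjusted p = 0.04). Slc25a39, needed for mitochondrial glutathione import, had 3587, 2288 and 2686 reads under PBS and 1955, 1690 and 1627 after treatment, the log2 change being -0.70 (SE 0.19, edgeR adjusted p = 0.061). The citrate carrier gene Slc25a1 stood at -0.87 (SE 0.23, edgeR adjusted p = 0.058). Slc25a27, an uncoupling protein relative best known from neurons, had 196, 148 and 208 reads under PBS and 47.4, 49.3 and 38.5 after treatment, and fell by 2.03 (SE 0.26, edgeR adjusted p = 0.04). Slc25a53 rose from 45.2, 86.7 and 53.9 to 152, 177 and 151 reads (1.37, SE 0.32, edgeR adjusted p = 0.048), but was not called with total-count scaling at 1.18. The mitochondrial pyruvate carrier genes, which lie outside the Slc names, were both higher: Mpc2 rose by 0.73 (SE 0.16, edgeR adjusted p = 0.045) and Mpc1 stood at 0.32 (SE 0.09, edgeR adjusted p = 0.062).

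**Figure D2:**
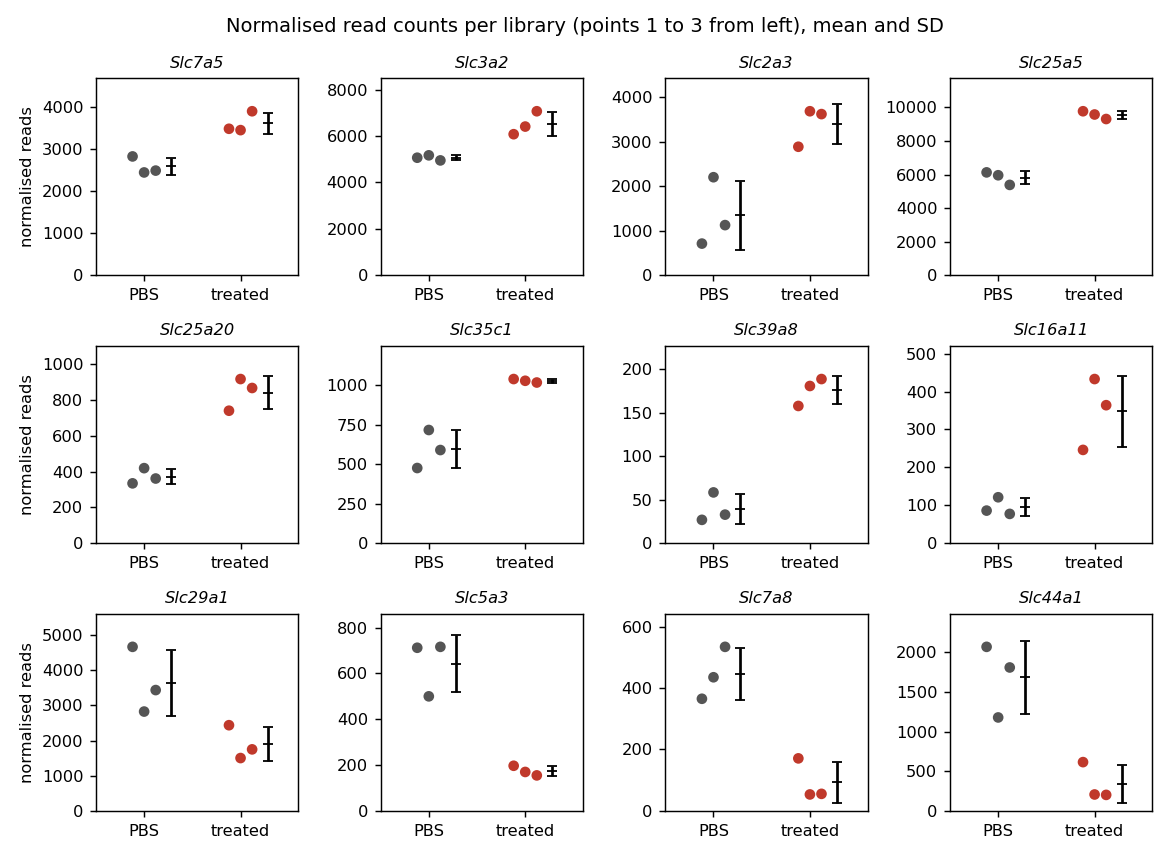
Normalised reads of 12 members, with 1 point per library (1 to 3 from left) and the mean ± SD beside them; each panel starts at 0. Slc25a5 and Slc35c1 have narrow treated groups far above PBS, Slc2a3 varies from 712 to 2202 within PBS, and Slc7a8 and Slc44a1 have treated library 1 above the other treated libraries.

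In the Slc35 family, 9 of 13 genes were higher by the authors' deposited log2 changes, 5 of them called, and 4 were lower, 3 of them called. Slc35c1, which carries GDP-fucose into the Golgi apparatus, had 476, 717 and 590 reads under PBS and 1040, 1029 and 1018 after treatment, and rose by 0.79 (SE 0.17, edgeR adjusted p = 0.044). It was not called with total-count scaling at 0.60 or on log2(TPM + 1) at 0.52. Its relative Slc35c2 rose from 678, 769 and 593 to 1015, 1166 and 1129 reads (0.70, SE 0.13, edgeR adjusted p = 0.041). Slc35b1, which exchanges ATP and ADP across the endoplasmic reticulum membrane, had 689, 716 and 715 reads under PBS and 978, 971 and 1046 after treatment, and rose by 0.50 (SE 0.09, edgeR adjusted p = 0.04). Slc35g1 and Slc35a4 rose by 0.83 (SE 0.14) and 0.38 (SE 0.08). Slc35f5, Slc35f6 and Slc35e3 fell by 1.88 (SE 0.43), 0.73 (SE 0.11) and 0.68 (SE 0.17). Slc35f6 was even within both groups, with 634, 616 and 606 reads under PBS and 380, 390 and 351 after treatment. The sign of Slc35e1, at 0.30 (SE 0.10), was lost on log2(TPM + 1), where its mean level was 21.6 TPM in both groups.

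Metal carriers included 5 genes higher and 6 lower of 11, with 2 called each way. Slc39a8, the zinc and manganese importer ZIP8, had 26.8, 58.4 and 32.8 reads under PBS and 158, 181 and 189 after treatment, and rose by 2.16 (SE 0.37, edgeR adjusted p = 0.04). Slc39a6, the zinc importer ZIP6, rose by 0.40 (SE 0.09, edgeR adjusted p = 0.045), from 1142, 1018 and 1077 to 1463, 1386 and 1408 reads, but was not called with total-count scaling at 0.21 or on log2(TPM + 1) at 0.08. Slc39a13, the zinc carrier ZIP13 of the secretory pathway, fell by 1.38 (SE 0.26, edgeR adjusted p = 0.041). Slc11a1, the metal pump NRAMP1 of macrophage phagosomes, had 324, 344 and 487 reads under PBS and 169, 76.6 and 59.8 after treatment, and fell by 1.92 (SE 0.45, edgeR adjusted p = 0.049). Slc11a2, its relative DMT1, which moves iron out of endosomes, stood at 0.32 (SE 0.09, edgeR adjusted p = 0.061). Tfrc, the transferrin receptor that brings that iron into the cell, rose by 0.86 (SE 0.14, edgeR adjusted p = 0.04).

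Inorganic ion carriers were mostly lower. In the authors' deposited table, a total of 15 of 19 were lower, 9 of them called, and 4 were higher, 2 of them called. All 6 Slc4 bicarbonate carriers and all 4 Slc12 cation-chloride carriers in the table were lower, with 4 and 2 called. With median-ratio scaling, however, Slc4a2 and Slc12a9 stood at 0.02 and 0.06. Slc4a7, a sodium bicarbonate cotransporter, had 1332, 1202 and 1404 reads under PBS and 750, 594 and 583 after treatment, and fell by 1.03 (SE 0.14, edgeR adjusted p = 0.04). Slc12a2, the NKCC1 cotransporter of sodium, potassium and chloride, fell from 861, 503 and 807 to 359, 182 and 206 reads (-1.54, SE 0.35, edgeR adjusted p = 0.047). The scarcer Slc12a5, Slc4a4 and Slc8a1 fell by 2.76 (SE 0.41), 2.39 (SE 0.57) and 2.31 (SE 0.53). Without treated library 1 the change of Slc4a4 was -3.02. The risers were Slc9a9, an endosomal sodium-proton exchanger, from 208, 492 and 365 to 789, 989 and 1044 reads (1.41, SE 0.33, edgeR adjusted p = 0.048), and Slc24a3, a potassium-dependent sodium-calcium exchanger, from 11.1, 19.5 and 17.3 to 49.4, 86.5 and 79.0 reads (2.16, SE 0.38, edgeR adjusted p = 0.04). Slc9a9 was not called with total-count scaling at 1.21 or on log2(TPM + 1) at 1.08. Atp1b3, a subunit of the sodium pump that powers many carriers, rose by 0.56 (SE 0.14, edgeR adjusted p = 0.049). The scaffold genes Slc9a3r1 and Slc9a3r2 moved apart, the former rising by 0.75 (SE 0.16) and the latter falling by 2.52 (SE 0.56), or by 3.14 without treated library 1.

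Nucleoside, choline and vitamin carriers included some of the most abundant members. Slc29a1, the nucleoside carrier ENT1, had 4665, 2825 and 3436 reads under PBS and 2437, 1503 and 1750 after treatment. The groups did not overlap, with mean levels of 179 ± 40.9 and 76.4 ± 23.1 TPM (SD, n = 3), and the log2 change was -0.94 (SE 0.27, edgeR adjusted p = 0.063). The choline carrier-like genes Slc44a1 and Slc44a2 went opposite ways. Slc44a1 had 2068, 1178 and 1808 reads under PBS and 615, 207 and 202 after treatment, and fell by 2.30 (SE 0.53, edgeR adjusted p = 0.047), or by 3.04 without treated library 1. Slc44a2 had 2323, 5271 and 3589 reads under PBS and 6628, 9240 and 8094 after treatment, a difference of 1.10 on the log2 scale (SE 0.32, edgeR adjusted p = 0.067). Slc52a3, a riboflavin carrier, varied most among the PBS libraries of all members that were higher, at 63.7, 231 and 118 reads, against 365, 440 and 433 in treated libraries (1.59, SE 0.48, edgeR adjusted p = 0.07). Slc23a2, which carries ascorbate, fell by 0.67 (SE 0.15, edgeR adjusted p = 0.047).

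Of the fatty acid transport proteins, Slc27a6 rose and Slc27a1 and Slc27a3 fell. Slc27a6 had 10.2, 24.3 and 9.63 reads under PBS and 75.1, 91.9 and 60.9 after treatment (2.36, SE 0.46, edgeR adjusted p = 0.042). Slc27a1 had 975, 659 and 943 reads under PBS and 438, 419 and 331 after treatment (-1.12, SE 0.20, edgeR adjusted p = 0.041). Slc37a4, the glucose 6-phosphate carrier of the endoplasmic reticulum, rose from 306, 300 and 264 to 452, 547 and 491 reads (0.78, SE 0.14, edgeR adjusted p = 0.04). Slc15a3, a lysosomal peptide and histidine carrier, fell from 639, 758 and 952 to 327, 175 and 175 reads (-1.79, SE 0.32, edgeR adjusted p = 0.04). Slc14a1, a urea carrier, fell by 1.19 (SE 0.27, edgeR adjusted p = 0.046).

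Organic ion and drug carriers had the lowest median of the larger classes, with 6 of 7 lower and 4 called lower. Slco2b1, an organic anion carrier, had 16.6, 26.3 and 15.4 reads under PBS and 1.98, 2.19 and 1.07 after treatment, and fell by 3.39 (SE 0.45, edgeR adjusted p = 0.04). Slc22a18 had 47.1, 18.5 and 30.8 reads under PBS and 6.92, 1.09 and 1.07 after treatment, and fell by 3.32 (SE 0.76, edgeR adjusted p = 0.047), or by 4.74 without treated library 1. Slco2a1, the prostaglandin carrier, had 224, 161 and 198 reads under PBS and 40.5, 3.28 and 3.20 after treatment. Its log2 change of -3.61 (SE 1.03) was the most negative of all members fitted but was not called (edgeR adjusted p = 0.064). Slc22a21 and Slc22a4, neighbours on chromosome 11 that encode closely related carnitine and ergothioneine carriers, were both lower, Slc22a21 falling by 2.42 (SE 0.49, edgeR adjusted p = 0.043) and Slc22a4 standing at -2.68 (edgeR adjusted p = 0.11), with 58.3 reads in treated library 1 but 3.28 and 9.61 in the others. Counts of Slc22a21 were fractional, so reads may have been split with a similar gene and its value is uncertain. The same holds for Slc7a5, Slc3a2, Slc7a7, Slc38a6, Slc25a37, Slc27a1, Slc39a13, Slc20a2, Slc26a10 and Slc10a7, the other members with fractional counts.

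Adjacent members were few. Only 3 pairs of members were neighbours in RefSeq's order of protein-coding genes, the Slc16 and Slc22 pairs named above and Slc25a43 with Slc25a5 on chromosome X. The first 2 pairs had the same direction and the last had opposite directions, Slc25a43 being lower and Slc25a5 higher in the authors' deposited table. Of 2437 pairs of neighbouring table genes, 64.5% had the same direction.

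Promoters of 4 members among those with the largest called changes are shown so that the start regions of risers and fallers can be compared. They are RefSeq windows on GRCm38.p6, from 250 bases before to 50 bases after an annotated start, on the gene's strand, the most upstream window where a gene has several. Slc5a11 (chr7:123214616-123214915, plus strand) and Slc39a8 (chr3:135825029-135825328, plus strand) rose, and Slco2b1 (chr7:99711291-99711590, minus strand) and Slc22a18 (chr7:143473539-143473838, plus strand) fell. Capitals mark the word GAGGAAGT or its reverse complement ACTTCCTC, a core bound by the myeloid transcription factor PU.1.
Slc5a11: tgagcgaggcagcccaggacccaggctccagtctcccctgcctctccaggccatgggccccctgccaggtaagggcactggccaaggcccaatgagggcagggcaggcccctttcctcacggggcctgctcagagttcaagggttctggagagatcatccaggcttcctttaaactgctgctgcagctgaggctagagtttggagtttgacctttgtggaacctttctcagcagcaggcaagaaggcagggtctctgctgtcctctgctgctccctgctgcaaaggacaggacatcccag
Slc39a8: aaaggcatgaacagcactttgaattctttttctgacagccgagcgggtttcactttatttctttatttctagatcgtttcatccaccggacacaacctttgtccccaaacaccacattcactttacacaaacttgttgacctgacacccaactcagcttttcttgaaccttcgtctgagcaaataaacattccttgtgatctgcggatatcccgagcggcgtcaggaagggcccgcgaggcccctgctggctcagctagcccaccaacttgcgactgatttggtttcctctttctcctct
Slco2b1: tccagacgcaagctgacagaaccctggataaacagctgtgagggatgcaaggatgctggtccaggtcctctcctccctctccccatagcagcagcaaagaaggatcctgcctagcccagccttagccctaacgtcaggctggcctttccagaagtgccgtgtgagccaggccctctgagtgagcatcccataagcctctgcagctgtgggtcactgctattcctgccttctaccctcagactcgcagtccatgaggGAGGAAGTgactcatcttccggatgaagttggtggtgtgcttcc
Slc22a18: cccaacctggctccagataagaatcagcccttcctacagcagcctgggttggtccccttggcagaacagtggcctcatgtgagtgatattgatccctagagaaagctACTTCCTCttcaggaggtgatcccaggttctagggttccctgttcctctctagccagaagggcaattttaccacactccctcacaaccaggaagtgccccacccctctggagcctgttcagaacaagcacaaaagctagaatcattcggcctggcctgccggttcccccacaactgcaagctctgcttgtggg
The word lies across the annotated start of Slco2b1, beginning 6 bases before it, and begins 143 bases before that of Slc22a18. Of the 23 members called lower that have a window, these 2 held it, and of the 16 called higher that have one, 0 did, while 3.69% of all 27025 genes with a window held it. Over all 86 members with a window, 5 held it, the others being Slc12a4, Slc31a1 and Slc49a4, all lower in the authors' deposited table. The STAT word TTCNNNGAA, which reads the same on both strands, was in windows of 2 members, Slc35b1 and Slco2b1, and in those of 9.55% of all genes; the Slco2b1 windows that hold it start further downstream than the one shown. Both words were chosen with the members' values known, and a match is a description of the letters only.

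Members differed in how far they varied within a group, and in this they could be set beside the cell type markers. Among the 12 T cell markers, PBS library 2 held between 2.36 and 3.28 times the reads of PBS library 1. Of the 48 members that were higher, 19 had a ratio over 1.5, or 39.6% against 37.8% of all table genes that were higher. Slc52a3 at 3.62, Slc2a3 at 3.09, Slc35f2 at 2.90 and Slc44a2 at 2.27 were among the high ratios. By contrast Slc7a5 at 0.865, Slc25a5 at 0.972, Slc25a3 at 0.994, Slc3a2 at 1.02 and Slc35b1 at 1.04 were about level between the same libraries. The order PBS library 2, then 3, then 1 was found in 32 of the 48, or 66.7% against 60.4% of all higher table genes. All 12 T cell markers had that order, as did 8 of 10 NK cell markers and 6 of 8 endothelial markers. Among the 70 members that were lower, 0 had it, against 4.02% of all lower table genes.

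Treated library 1 held more of the macrophage and fibroblast markers than the other treated libraries did. It had 1.57 to 4.59 times the mean of treated libraries 2 and 3 in the 16 macrophage and monocyte markers and 3.08 to 11.1 times in the 11 fibroblast and pericyte markers. The same ratio ran from 0.862 to 2.72 in the 10 dendritic cell markers and from 1.23 to 2.44 in the 8 endothelial markers, with treated library 1 the highest in 7 and 6 of them. Of the 67 lower members with reads in treated library 2 or 3, 31 had a ratio over 1.5, or 46.3% against 58.8% of all lower table genes. Slco2a1 at 12.5, Slc22a4 at 9.04, Slc4a3 at 7.33, Slc6a15 at 6.61 and Slc6a8 at 4.94 had high ratios. Slc16a7 at 0.782, Slc12a5 at 0.914, Slc4a8 at 0.975, Slc35f6 at 1.03, Slc7a7 at 1.05, Slc25a27 at 1.08 and Slc5a3 at 1.21 had low ratios, below the ranges of the macrophage and fibroblast markers, while the dendritic cell range takes in most of them. The part of other cell types in the lower members was not tested, nor was the part of T cell content in the higher ones.

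**Figure D3:**
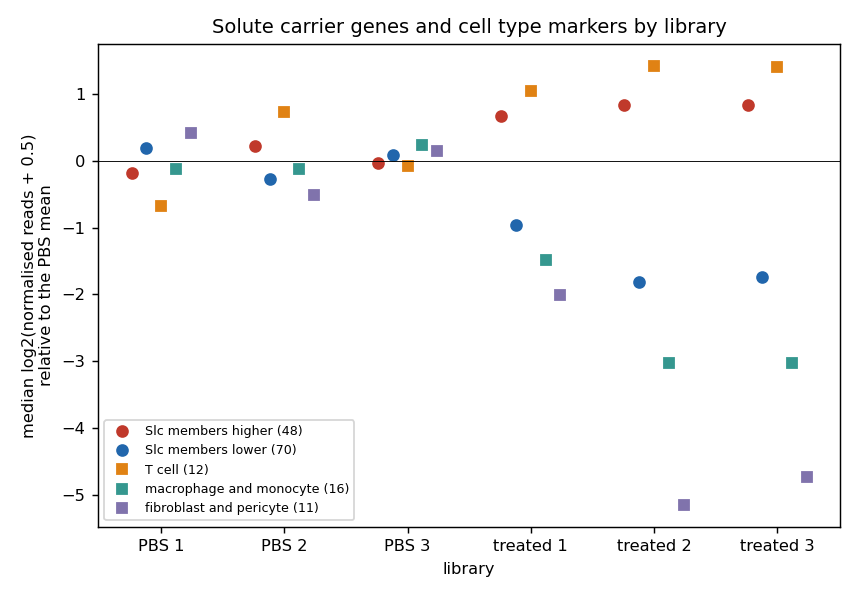
Median over genes of log2(normalised reads + 0.5) relative to the PBS mean, for the 48 higher and 70 lower members (circles) and for 3 marker lists (squares) in each library, with the number of genes in brackets. The higher members have medians of -0.19, 0.22 and -0.03 in PBS libraries 1 to 3, where the T cell markers have -0.67, 0.73 and -0.08; the lower members have -0.96, -1.81 and -1.74 in treated libraries 1 to 3, where the macrophage markers have -1.48, -3.03 and -3.03.

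In levels per transcript length, the summed TPM of the 118 members was 3398, 3355 and 3564 in PBS libraries and 3355, 3170 and 3205 in treated libraries. The Slc25 genes made up 1395 to 1469 of this in PBS and 1478 to 1575 in treated libraries. Amino acid carriers summed to 541, 546 and 579 TPM in PBS and 503, 476 and 513 in treated libraries, and Slc3a2 was the largest contributor. Glucose and sugar carriers summed to 49.9, 84.0 and 63.3 TPM in PBS and 86.6, 98.0 and 97.3 in treated libraries, so the highest PBS library came close to the lowest treated one. By mean TPM over all 6 libraries the 6 most abundant members were Slc25a5, Slc25a3, Slc3a2, Slc44a2, Slc25a39 and Slc29a1.

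**Figure D4:**
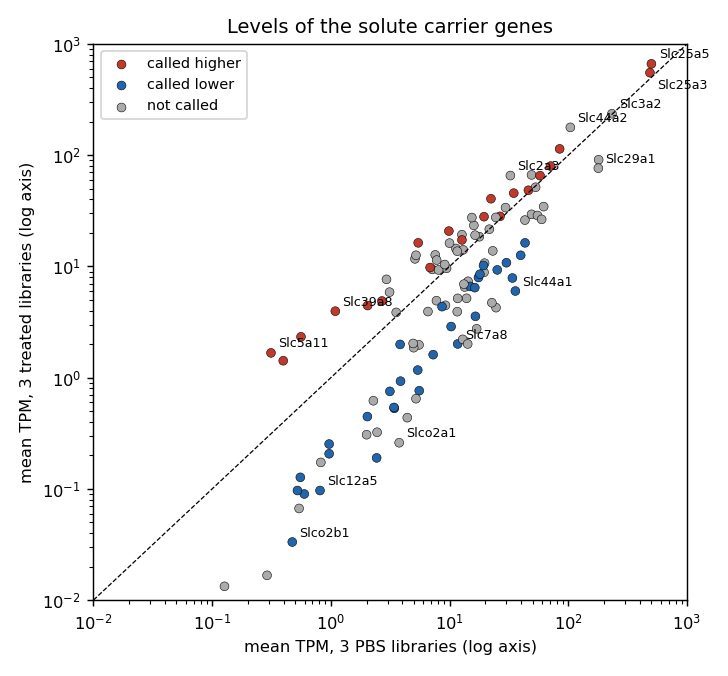
Mean TPM of each member in 3 treated libraries against 3 PBS libraries, both on log axes, coloured by the edgeR call; the dashed line marks equal levels, and members at 0 in a group are left out. Slc25a5 and Slc25a3 lie at the top right, above the line, and Slc3a2 lies on it at 233 and 236 TPM, while the called falls lie further to the lower left.

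Genes around the carriers were read from lists. Of 21 carriers listed as nutrient transporters of T cells, 9 were in the table, 7 higher and 2 lower. The 4 called higher were Slc7a5, Slc39a6 and the mitochondrial Slc25a5 and Slc25a20, and the 1 called lower was Slc5a3. Slc2a1, Slc1a5, Slc16a1 and Slc16a3 are among those outside the table. The list was chosen with earlier results known, so its median log2 change of 0.48 is a description only. All genes fitted had 16.5% called higher, 20.7% called lower and a median of -0.57. Of all table genes, 42.3% were higher and 57.7% lower. These values also apply beside the lists that follow, which were likewise chosen with earlier results known. Of 26 transport partners outside the Slc names, 15 were in the table, 11 higher and 4 lower, with 6 called higher and 1 lower and a median of 0.86. In this list Txnip, which restrains glucose uptake, rose by 1.12 (SE 0.24, edgeR adjusted p = 0.044), Aqp9, a channel for water and glycerol, rose by 1.73 (SE 0.31, edgeR adjusted p = 0.04), and Arrdc4, a relative of Txnip, fell by 1.27 (SE 0.26, edgeR adjusted p = 0.044). Of 32 genes of the ATF4 and mTORC1 nutrient responses, 15 were in the table, 4 higher and 11 lower, with 3 called higher and 6 lower and a median of -1.48. The amino acid stress genes Atf5 and Chac1 fell by 2.14 (SE 0.44) and 2.32 (SE 0.49), and the asparagine synthetase gene Asns stood at -1.05 (SE 0.29, edgeR adjusted p = 0.062). The 3 called higher were Ddit4, Lamtor4 and Shmt2. Ddit4 rose by 1.52 (SE 0.16, edgeR adjusted p = 0.04), the most of this list. Lamtor4, a part of the lysosomal complex that recruits mTORC1, rose by 0.90 (SE 0.17, edgeR adjusted p = 0.04). Shmt2 rose by 0.59 (SE 0.12, edgeR adjusted p = 0.043). In these response genes PBS library 2 was below PBS library 1 in the median, at a ratio of 0.549, beside 0.661 in all lower table genes. Among the marker lists the same ratio ran from 0.517 (fibroblast and pericyte) to 2.96 (endothelial). It was 0.996 in the macrophage and monocyte markers and 1.06 in the dendritic cell markers. What lies behind these ratios was not tested.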

How the data were processed

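The authors deposited 1 table of genes with an estimated count, TPM, FPKM and log10(TPM + 1) per library, and their own log2 change, p-value and q-value, per the file headers. HISAT2 and RSEM appear, without role or version, in the submitters' processing notes; the build, the pipeline and the authors' test are not given in the sources used here. Adjusting the deposited p-values over 17077 genes by Benjamini-Hochberg returned 100% of the q-values within 1e-06. The authors' size factors were recovered from the log2 changes of 3105 genes with over 200 reads in every library (0.914 to 1.084, median absolute residual 9.9e-05). Counts were rounded and tested in R 4.3.3 by the quasi-likelihood method of edgeR 4.0.16, robust and two-sided, after filterByExpr and with no covariate. P-values were adjusted over 17077 genes, and genes called at 0.05; the SE is the log2 change divided by the square root of F. DESeq2 1.42.0, limma 3.58.1, other scalings, filters and left-out libraries were alternatives. TPM was used to compare genes. All 118 identifiers matched RefSeq with the same symbol.

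The members, classes, lists and scaling were chosen with earlier results of these data known. Named genes were the 12 largest called rises and falls without overlap, the 6 highest in TPM, table members of the T cell nutrient list, and the extremes of families called both ways; genes beyond these illustrate a class and were chosen after their values were seen. Markers of neutrophils (2 of 3 table genes higher), NK cells (9 of 10 higher) and epithelium (1 gene, higher) were also listed; no B cell or red blood cell marker was in the table.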

Additional observations from a re-analysis of the deposited data

How the results depend on the processing

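The sign of the log2 change was the same as reported for 114 of the 114 members fitted under TMM, total-count scaling, DESeq2, limma-voom, no filter, the replicate block and each left-out library; 3 (Slc12a9, Slc4a2, Slc7a6os) changed sign with median-ratio scaling and 2 (Slc35e1, Slc38a10) with limma on TPM, none of them called. Counts called higher and lower, 20 and 32 as reported, were 36 and 29 with TMM, 41 and 34 with median-ratio scaling, 10 and 50 with total counts, 47 and 69 with DESeq2, 39 and 56 with limma-voom, 13 and 66 on log2(TPM + 1), 9 and 70 on log2(TPM + 0.1), 24 and 39 without a filter, and 47 and 65 adjusted over fitted genes only. Called higher and lower among all genes were 1031 and 1296 as reported. The numbers were 1995 and 1182 with TMM, 2258 and 1686 with median-ratio scaling, and 411 and 2027 with total counts. With DESeq2 they were 2677 and 3674, and with limma-voom 1981 and 2925. On log2(TPM + 1) they were 504 and 3452, and on log2(TPM + 0.1) 410 and 3600. Without a filter they were 1202 and 1641, and adjusted over fitted genes only 2655 and 3459. Of all genes called, the share higher was 44.3% as reported, 62.8% with TMM, 57.3% with median-ratio scaling, 16.9% with total counts, 12.7% on log2(TPM + 1) and 10.2% on log2(TPM + 0.1). The members' median was -0.37, -0.22 and -0.82 with TMM, median-ratio and total-count scaling and -0.95 on log2(TPM + 0.1). Leaving out 1 library gave 0 to 36 members called higher, 0 to 63 called lower and a median between -0.73 and -0.51. Among all genes, 0 to 1649 were then called higher and 0 to 3040 lower. Same-numbered libraries deviated from their group means with correlations of 0.60, 0.60 and -0.24. Unlike-numbered pairs ran from -0.70 to 0.56, with PBS library 2 and treated library 3 at 0.56 and PBS library 3 and treated library 1 at 0.29. With only 3 libraries per group, these correlations cannot settle whether the number pairs them. With the replicate block, 37 members were called higher and 51 lower, beside 1743 and 2594 of all genes. Of the 52 reported calls, 49 were kept. The cause of these differences was not tested. Members under about 20 reads in PBS, such as Slco2b1, Slc5a11 and Slc27a6, are limited by depth.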
